A study of Mus musculus with 2 samples.

Results

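The 7 formyl peptide receptor genes of the mouse, Fpr1, Fpr2, Fpr3, Fpr-rs3, Fpr-rs4, Fpr-rs6 and Fpr-rs7, were followed across the cells of the vomeronasal organ (VNO), the chemosensory organ at the base of the nasal septum. They were taken by symbol from the 32285 genes of the deposited tables. All 7 were among the 21823 genes with a unique molecular identifier (UMI, 1 counted RNA molecule) in at least 3 cells, before cells were filtered. The data are droplet single-cell RNA-seq libraries of dissociated whole VNO, 2 in number, both from untreated wild-type males of the strain C57 BL/6J at postnatal day 60. The labels give 5 organs to a sample, whereas the study's text speaks of 5 mice in all, so each library pools animals, and the spread between the libraries may be technical. There was no treated or mutant group. The comparisons are therefore between cell types within the same organs, with UMIs summed over the cells of a type in each library, and n = 2 libraries throughout.

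Formyl peptide receptors are G protein-coupled receptors. On neutrophils, monocytes and macrophages they bind peptides that begin with N-formylmethionine, which bacteria and damaged mitochondria release, as well as host proteins such as annexin A1, and they signal through the inhibitory G protein alpha subunit Gnai2 to cell migration and the oxidative burst. In rodents the family has expanded, and several members are known as receptors of vomeronasal sensory neurons. These neurons fall into an apical population with Gnai2, most of which use a V1R receptor (Vmn1r genes), and a basal population with Gnao1, which use V2R receptors (Vmn2r genes), and all mature ones carry the olfactory marker protein gene Omp.

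The 7 genes lie on chromosome 17 (GRCm38, GENCODE M21 annotation), between positions 17876471 and 20624877. Fpr1 (ENSMUSG00000045551, chr17:17876471-17883940, minus strand) has 2 exons, a coding sequence of 1095 bases and an annotated 3′ UTR of 160 bases. Fpr2 (ENSMUSG00000052270, chr17:17887824-17893952, plus strand) and Fpr3 (ENSMUSG00000079700, chr17:17887852-17971677, plus strand) each have 2 exons and 1056 coding bases, and their gene models overlap by 6101 bases on the same strand. Fpr-rs4 (ENSMUSG00000048062, chr17:18021733-18022704, plus strand), Fpr-rs7 (ENSMUSG00000071276, chr17:20113210-20114226, minus strand), Fpr-rs6 (ENSMUSG00000071275, chr17:20182078-20183097, minus strand) and Fpr-rs3 (ENSMUSG00000060701, chr17:20623846-20624877, minus strand) are each annotated as 1 exon of 972, 1017, 1020 and 1032 bases, with no UTR at either end. The release of the gene models behind the deposited counts is not stated, so theirs may differ from this annotation. Where the models are alike, they bear on every count that follows. The libraries were read from the 3′ end of the RNA, and reads that fall in a 3′ UTR outside a gene model are not counted for that gene. Levels were therefore compared between cell groups for 1 gene and never between genes.

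The members also differ in how well their reads can be told apart. In pairwise alignment, the coding sequences of Fpr-rs6 and Fpr-rs7 were identical at 96.6% of positions and those of Fpr2 and Fpr3 at 88.2%. Fpr-rs3 was 81.1% identical to Fpr-rs4, 82.4% to Fpr-rs6 and 81.7% to Fpr-rs7, while Fpr1 reached at most 66.6% with any other member. The last 120 coding bases of the 2 closest pairs are shown because the 3′ reads come from this end. Capitals mark the bases that differ from, or have no partner in, the other member of the pair.
Fpr-rs6 (chr17:20182078-20182197, minus strand): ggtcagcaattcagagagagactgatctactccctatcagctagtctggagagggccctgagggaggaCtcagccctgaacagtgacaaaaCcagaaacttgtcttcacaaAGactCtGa
Fpr-rs7 (chr17:20113210-20113329, minus strand): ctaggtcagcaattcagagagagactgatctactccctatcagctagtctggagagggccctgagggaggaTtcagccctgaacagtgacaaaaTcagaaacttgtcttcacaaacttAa
Fpr2 (chr17:17893680-17893799, plus strand): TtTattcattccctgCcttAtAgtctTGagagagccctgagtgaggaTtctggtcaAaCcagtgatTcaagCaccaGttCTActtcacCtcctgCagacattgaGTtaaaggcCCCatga
Fpr3 (chr17:17971405-17971524, plus strand): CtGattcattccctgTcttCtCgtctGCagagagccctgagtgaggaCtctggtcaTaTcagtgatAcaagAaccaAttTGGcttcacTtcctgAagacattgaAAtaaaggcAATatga
Fpr2 and Fpr3 differ at 23 of these 120 bases. In the Fpr-rs6 stretch 6 bases are capitals and in the Fpr-rs7 stretch 3, so a short read can fit both Fpr-rs6 and Fpr-rs7, and the counts of these genes are less certain than those of the other members.

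Windows of 80 bases around the start codon are shown for the 5 members that were nearly absent from myeloid cells (RefSeq table, GRCm38.p6). They run from 60 bases before the start codon to its twentieth coding base, which makes visible how alike the neuronal members are before the annotated exon of Fpr-rs3, Fpr-rs4, Fpr-rs6 and Fpr-rs7 begins. Capitals mark the start codon ATG and the AG that precedes it by 11 bases.
Fpr3 (chr17:17970409-17970488, plus strand): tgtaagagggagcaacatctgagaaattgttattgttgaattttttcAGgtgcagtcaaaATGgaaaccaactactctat
Fpr-rs3 (chr17:20624858-20624937, minus strand): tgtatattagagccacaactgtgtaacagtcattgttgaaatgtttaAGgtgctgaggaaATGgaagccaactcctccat
Fpr-rs4 (chr17:18021673-18021752, plus strand): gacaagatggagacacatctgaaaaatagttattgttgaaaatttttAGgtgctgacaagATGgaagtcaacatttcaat
Fpr-rs6 (chr17:20183078-20183157, minus strand): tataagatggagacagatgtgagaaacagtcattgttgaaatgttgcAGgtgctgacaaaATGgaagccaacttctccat
Fpr-rs7 (chr17:20114207-20114286, minus strand): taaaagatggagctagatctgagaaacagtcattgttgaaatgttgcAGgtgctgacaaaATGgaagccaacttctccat
All 5 windows hold AG at this distance, and in Fpr1, Fpr2 and Fpr3 the annotated coding exon starts at the same point, 11 bases before the start codon. Of the 1915 RefSeq windows that have ATG at the gene start, 162 (8.46%) hold AG at this distance. The match is a description of these letters and does not show that an exon starts there in the other 4 members.

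The libraries held 12814 and 11270 barcodes and 108005626 and 95442231 UMIs. A barcode was used when it held between 200 and 9000 genes and no more than 5% of its UMIs were mitochondrial, and 5694 and 4898 cells with medians of 6668 and 6650 UMIs passed. The same tables were also read at a limit of 10%, which kept 18705 cells in place of 10592, and values at this limit are named as such. Of the barcode sequences, 33 occurred in both libraries, and no cell with a member UMI was among them. Cells were clustered with the members left out of the clustering genes. Clusters were called neutrophil-like, monocyte-like, macrophage-like or mature-neuron-like from fixed marker lists, and these names are used below without the suffix. Of the 8 neutrophil markers, all 8 were raised in 1 cluster, Retnlg among them, and 5 in a cluster led by Mmp9. The monocyte cluster raised 7 of its 8 markers, the 3 macrophage clusters 7, 7 and 8 of 8, and the 3 neuron clusters 4, 5 and 4 of 7. This gave 754 neutrophils, 120 monocytes and 1685 macrophages, together called myeloid cells. It also gave 985 Omp-positive neurons, which are cells of the neuron clusters with at least 2 Omp UMIs. More Gnai2 than Gnao1 UMIs made 868 of them apical and the reverse made 115 basal.

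The family divided between leukocytes and neurons. Of the 140 Fpr1 UMIs in kept cells, 128 (91.4%) lay in myeloid cells and 0 in neurons, and of the 93 Fpr2 UMIs, 88 (94.6%) lay in myeloid cells and 1 in a neuron. The other members were nearly absent from myeloid cells, and for all of them but Fpr-rs3 most UMIs lay in neurons. Neurons held 8 of 12 Fpr3 UMIs, 11 of 29 Fpr-rs3 UMIs, 16 of 18 Fpr-rs4 UMIs, 38 of 44 Fpr-rs6 UMIs and 9 of 10 Fpr-rs7 UMIs, and the myeloid cells held 1 UMI of these 5 genes together. The division was alike at the 10% limit, with 150 of 163 Fpr1 UMIs and 97 of 106 Fpr2 UMIs in myeloid cells against 1 and 3 in neurons. Neurons then held 50 of 57 Fpr3 UMIs, 118 of 160 Fpr-rs3 UMIs, 34 of 36 Fpr-rs4 UMIs, 135 of 142 Fpr-rs6 UMIs and 30 of 34 Fpr-rs7 UMIs.

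The test of neurons against myeloid cells used the summed UMIs (edgeR's quasi-likelihood test, adjusted p by Benjamini-Hochberg over 15833 genes). The RNA content of the groups differs, so every value is relative to the group's total. Fpr1 gave 0 and 0 UMIs in the neurons of libraries 1 and 2 against 57 and 71 in myeloid cells. It was at least 88.8-fold lower in neurons, computed with a floor of 3 UMIs over the group (adjusted p = 5.6e-06). Fpr2 gave 0 and 1 UMIs against 35 and 53 (adjusted p = 1.28e-05), a ratio of 183 with a 95% counting interval of 32.0 to 7315. Fpr-rs4 was higher in neurons, with 9 and 7 UMIs against 0 and 0, at least 2.56-fold (adjusted p = 0.0314), a call that DESeq2 did not make (adjusted p = 0.168). Fpr-rs6, with 5 and 33 UMIs against 0 and 1, did not pass (adjusted p = 0.091), and it did with the library as a block (adjusted p = 0.00643). Fpr-rs3 did not pass, with 1 and 10 UMIs against 0 and 0 (adjusted p = 0.18), and Fpr3 and Fpr-rs7 had under 10 UMIs and were not tested. Thus 3 of 7 members were called, 2 were tested and not called and 2 were not tested, beside 69.5% of all genes tested that were called. A member read in 1 group passes the minimum of 10 UMIs through that group, so no summary over the tested members is given.

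More of the neuronal members passed at the 10% limit. Fpr-rs3 had 55 and 63 UMIs in neurons against 0 and 0 in myeloid cells, at least 7.31-fold higher (adjusted p = 0.00105). Fpr-rs6 had 61 and 74 UMIs against 0 and 1, a log2 fold change of 3.95 ± 0.79 (SE; adjusted p = 0.00198). Fpr-rs7, with 16 and 14 UMIs against 0 and 0, was at least 1.86-fold higher (adjusted p = 0.0335), and Fpr-rs4, with 15 and 19 against 0 and 0, at least 2.11-fold (adjusted p = 0.0277). Fpr3 did not pass, with 7 and 43 UMIs against 0 and 1 (adjusted p = 0.223). Fpr1 and Fpr2 kept their direction and their call. In this fit 70.0% of all genes were called. Markers of other cell types were read in the neurons at the 5% limit. The 8 macrophage markers summed to 274 and 585 CPM (the UMIs of a gene scaled by all UMIs of the group) in neurons against 73884 and 73680 in myeloid cells. The 8 neutrophil markers summed to 19.7 and 31.5 CPM in neurons against 6012 and 7804 in myeloid cells. Of these, Retnlg, Ly6g and Ngp were at 0 in neurons and the others were not. The 4 sustentacular markers summed to 335 and 379 CPM in neurons against 12.9 and 11.6 in myeloid cells, with 2 of 3 tested called higher and Cyp1a2 at 0. Their part in the results was not tested.

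**Figure D1:**
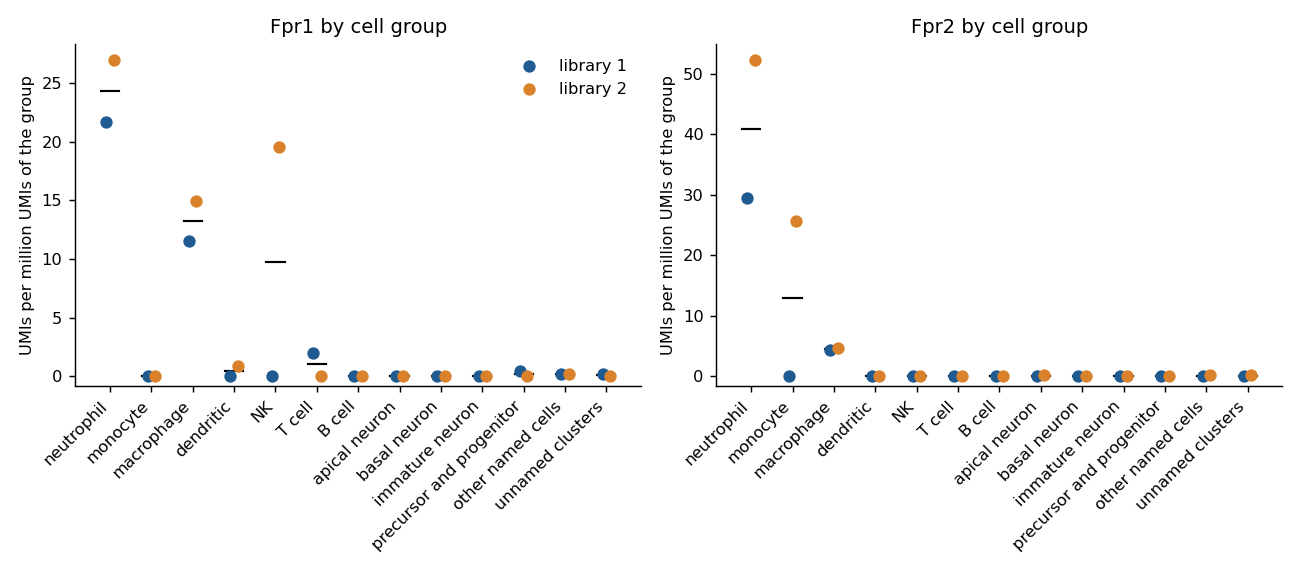
Level of Fpr1 (left) and Fpr2 (right) in 13 cell groups, in CPM; points are the 2 libraries and the bar is their mean. Fpr1 stands highest in neutrophils (21.7 and 27.0), followed by macrophages (11.5 and 14.9) and, through 3 UMIs of 1 cell, NK cells of library 2; Fpr2 stands highest in neutrophils (29.4 and 52.4), and both genes lie near 0 in the neurons.

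Fpr1, the high-affinity receptor for formylated peptides, was highest in neutrophils. Its level there was 21.7 CPM in library 1 (14 UMIs) and 27.0 in library 2 (16 UMIs). Macrophages followed with 11.5 and 14.9 CPM (43 and 55 UMIs), and the libraries of these groups did not overlap. NK cells had 0 and 19.5 CPM, all from 3 UMIs in 1 cell, and overlapped with macrophages. Monocytes had 0 and 0 UMIs, dendritic cells 1 UMI, T cells 1 UMI and B cells 0. The 868 apical and 115 basal neurons had 0 Fpr1 UMIs, which allows up to 0.177 and 1.38 CPM.

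Fpr2, a receptor with a broad range of peptide and lipid ligands, followed another order. Neutrophils had 29.4 and 52.4 CPM (19 and 31 UMIs) and lay above every other group. Monocytes came next with 0 and 25.7 CPM (0 and 5 UMIs), which overlapped with the 4.29 and 4.61 CPM (16 and 17 UMIs) of macrophages. Macrophages in turn lay above the remaining groups, where the 3392 cells of other named types held 2 UMIs.

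In the test of neutrophils against macrophages, Fpr2 was higher in neutrophils, with a log2 fold change of 3.08 ± 0.36 (SE; adjusted p = 1.6e-07). Fpr1 did not pass, with a log2 fold change of 0.78 ± 0.34 (adjusted p = 0.0653). The other 5 members had too few UMIs to be tested. So 1 of the 2 members tested was called, beside 42.4% of the 12053 genes tested. In neutrophils against monocytes, where 32.5% of 8203 genes were called, Fpr1 was at least 4.54-fold higher in neutrophils (30 against 0 UMIs, adjusted p = 8.44e-04). Fpr2 was also higher, with a log2 fold change of 2.19 ± 0.70 (adjusted p = 0.0186), which was 1.07 without library 1 and 4.94 without library 2. The 5 Fpr2 UMIs of monocytes came from 4 cells of library 2, and DESeq2 did not call the difference (adjusted p = 0.691). In monocytes against macrophages, where 19.3% of 11636 genes were called, Fpr1 was at least 2.47-fold lower in monocytes (0 against 98 UMIs, adjusted p = 0.00204), and Fpr2 did not pass (adjusted p = 0.481), its log2 fold change being -4.23 without library 2 and 2.25 without library 1. With 120 monocytes and 561523 UMIs, the count of 0 allows an Fpr1 level of up to 5.34 CPM.

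The receptors were read in few cells. At least 1 Fpr1 UMI was found in 29 of 754 neutrophils, or 3.85% (95% exact binomial interval 2.59 to 5.48, counting error only), and in 76 of 1685 macrophages, or 4.51%. Fpr2 was found in 46 neutrophils, or 6.10% (4.50 to 8.05), in 4 of 120 monocytes and in 33 macrophages, or 1.96%. The background is given by the cells of other named types, of which 0.0884% had an Fpr1 UMI and 0.0590% an Fpr2 UMI at a median depth of 6839 UMIs. Neutrophils had a median of 1593 UMIs and macrophages of 4512, so their shares are not comparable as they stand. Thinned to 1000 UMIs a cell, the share with Fpr1 was 2.38% in neutrophils and 0.875% in macrophages, and that with Fpr2 was 3.27% and 0.584%. Few cells had more than 1 UMI. At least 2 Fpr1 UMIs were read in 0.133% of neutrophils and 0.890% of macrophages, and at least 2 Fpr2 UMIs in 0.531% of neutrophils and 0 macrophages.

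The receptors were uneven within the macrophages and the neutrophils. The 366 macrophages of the cluster that raised Mrc1, the mannose receptor gene of tissue-resident macrophages, held 85 of the 98 Fpr1 UMIs of macrophages. Fpr1 reached 35.0 and 48.2 CPM there (33 and 52 UMIs), against 4.04 and 0.834 CPM (10 and 2 UMIs) in the 826 macrophages of a cluster with like depth (median 5516 against 5368 UMIs) and 1 UMI in 493 shallow ones (median 840 UMIs). Fpr2 followed with 12.7 and 11.1 CPM (12 and 12 UMIs) against 1.62 and 2.09 (4 and 5 UMIs). The libraries of the Mrc1 cluster lay above those of the other macrophages for both genes. Fpr1 was found in 17.8% of the Mrc1 macrophages and 1.21% of the others, and in 2.48% and 0.364% after thinning to 1000 UMIs. These clusters were picked after their values were seen, so the differences are given as a description, with no test.

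Neutrophils divided in a like way. In the 418 neutrophils of the cluster that raised Retnlg, which encodes a resistin-like protein, Fpr1 stood at 33.2 and 30.7 CPM (12 and 10 UMIs). It stood at 7.03 and 22.5 CPM (2 and 6 UMIs) in the 336 led by Mmp9, a gelatinase gene. Fpr2 stood at 47.1 and 70.6 CPM (17 and 23 UMIs) against 7.03 and 30.02 (2 and 8 UMIs). For both genes the libraries of the Retnlg cluster lay above those of the Mmp9 cluster, at median depths of 1559 and 1645 UMIs. These clusters, too, were picked after their values were seen. Compared with the Mrc1 macrophages alone, neutrophils did not have the higher Fpr1 level, since all neutrophils together had 21.7 and 27.0 CPM, below the 35.0 and 48.2 CPM of the Mrc1 cluster. Fpr2 stayed higher in neutrophils than in that cluster.

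**Figure D2:**
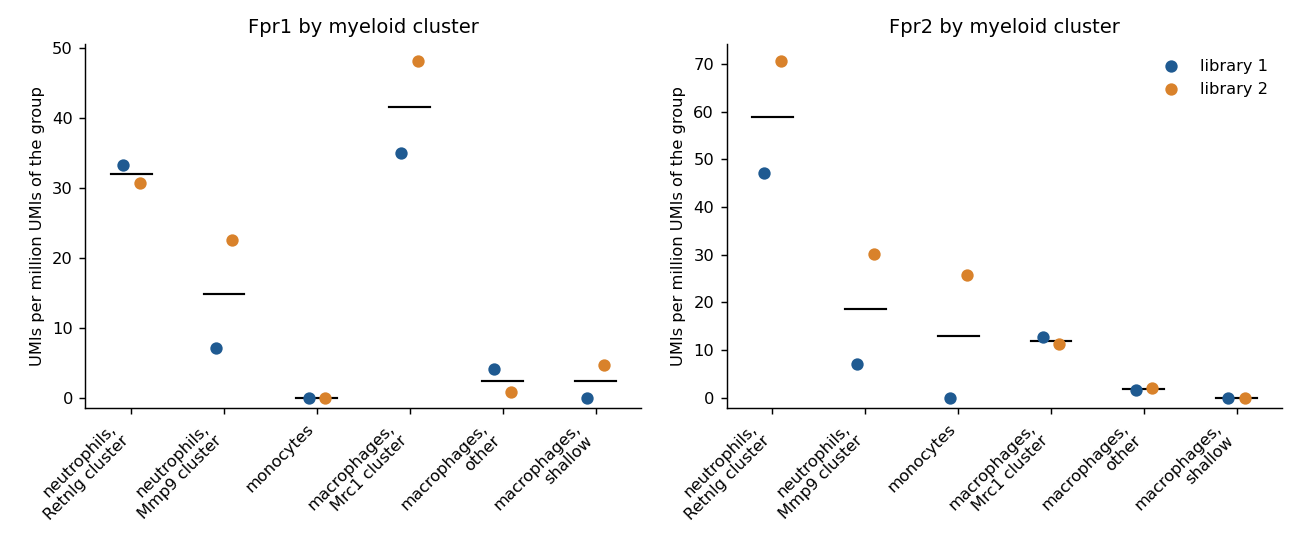
Level of Fpr1 (left) and Fpr2 (right) in 6 groups of myeloid cells, in CPM; points are the 2 libraries and the bar is their mean. Fpr1 is highest in macrophages of the Mrc1 cluster (35.0 and 48.2) and in neutrophils of the Retnlg cluster (33.2 and 30.7), while Fpr2 is highest in the Retnlg neutrophils (47.1 and 70.6).

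Neutrophils with granule genes, which mark the younger cells, were too few to compare. At least 3 UMIs of Camp, Ngp and Ltf together were found in 0 and 8 neutrophils. The 8 cells of library 2 held 1 Fpr1 and 5 Fpr2 UMIs among 36919 UMIs, and the 296 neutrophils of that library without granule-gene UMIs held 13 and 23 among 456467.

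Other chemoattractant receptors moved in the same comparisons, and the genes of these lists could take part in the clustering. Of 11 receptors tested in neutrophils against macrophages, 7 were higher and 4 lower, with a median log2 fold change of 2.05 beside -0.20 over all genes. Cxcr2, the neutrophil receptor for CXC chemokines, was higher by 8.02 ± 0.29 (log2, SE), Ltb4r1, a leukotriene B4 receptor, by 3.84 ± 0.26, Ccr1 by 3.27 ± 0.15 and C5ar1, a complement C5a receptor, by 2.05 ± 0.15. C3ar1, the C3a receptor gene, and the chemokine receptor genes Cx3cr1 and Ccr2 were lower, with log2 fold changes of -6.37, -6.18 and -4.23, as was Cmklr1 (-3.48). In neutrophils against monocytes 6 of 9 receptors tested were higher and 3 lower, and in monocytes against macrophages 2 of 10 were higher and 5 lower. Over all genes 32.5% and 19.3% were called in these fits. Ccr2 is itself a marker by which the monocyte cluster was named, so its direction in them is no result. In neurons against myeloid cells all 11 were lower. None of 5 tested was called in apical against basal neurons.

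Ccr1 and C5ar1 also differed between the myeloid clusters. In the Mrc1 macrophages Ccr1 had 210 and 203 UMIs against 67 and 74 in the other macrophages of like depth, and C5ar1 had 174 and 237 against 150 and 133. Both had more UMIs in the Retnlg than in the Mmp9 neutrophils, with 309 and 319 against 160 and 183 for Ccr1 and 187 and 191 against 65 and 80 for C5ar1. Ccr2, by contrast, had 1 and 2 UMIs in the Mrc1 macrophages against 243 and 268 in the others. These genes were picked after their values were seen.

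The genes of ligands and of signalling divided as well. Of the 4 ligand genes tested in neutrophils against macrophages, 3 were higher and 1 lower. Anxa1, which encodes annexin A1, was higher by 2.14 ± 0.20 (log2, SE) with 115 and 201 UMIs in neutrophils. Hebp1, the source of a peptide ligand, was lower by -5.12 ± 0.46. Camp, the cathelicidin gene, was called higher on 1 and 1598 UMIs, so its call rested on library 2. Of 19 signalling genes, 11 were higher in neutrophils, 3 lower and 5 not called, with a median of 0.44. The oxidase subunit gene Ncf1 rose by 2.66 ± 0.15 and Rac2 by 2.06 ± 0.13, while Cybb, the catalytic subunit gene of the same oxidase, fell by 3.96. In neutrophils against monocytes 7 of the 19 were higher and 3 lower, and in monocytes against macrophages 7 were higher and 3 lower.

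In neurons against myeloid cells, 15 of the 19 signalling genes were lower, 3 were higher and 1 was not called. The 3 higher ones encode G protein subunits: Gnai2 (log2 fold change 0.97 ± 0.10), which is itself a marker by which the neuron clusters were named, Gnb1 (3.30 ± 0.11) and Gng2 (2.19 ± 0.11). Plcb2, a phospholipase C gene, was not called (-0.15 ± 0.24, adjusted p = 0.594). The oxidase genes Ncf1, Ncf4 and Cybb were lower, with log2 fold changes of -8.46, -8.52 and -8.47, and of 4 ligand genes 3 were lower and Anxa1 was higher (0.59 ± 0.15). Of 14 vomeronasal neuron genes, which include markers that named the clusters, 12 were higher in neurons, 1 lower and 1 not called. The medians were -5.06 for signalling and 4.61 for neuron genes, beside 0.16 for all genes.

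**Figure D3:**
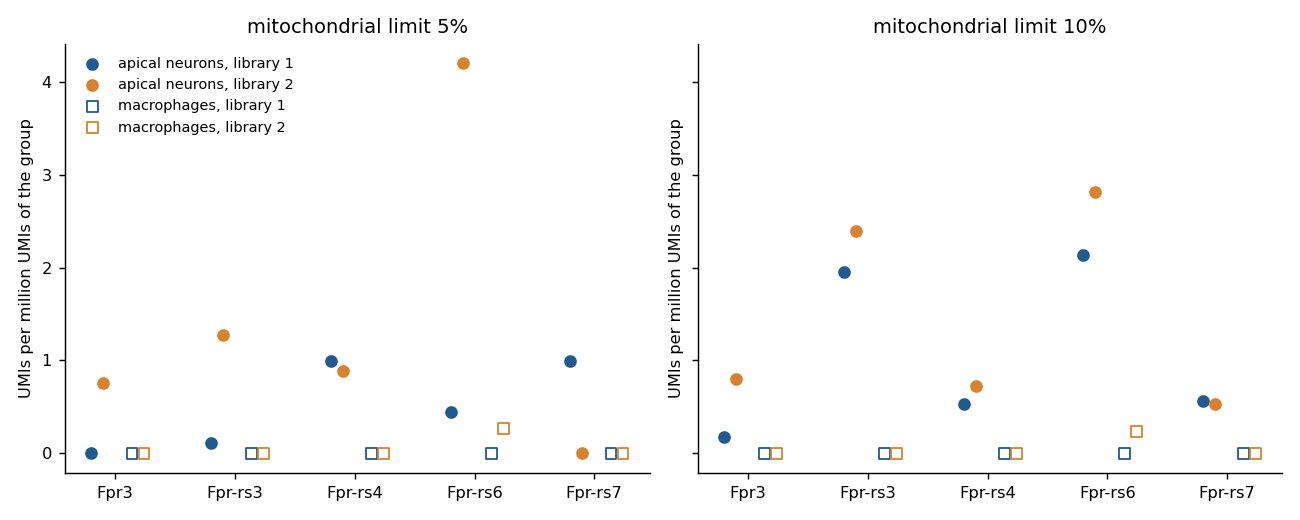
Level of Fpr3, Fpr-rs3, Fpr-rs4, Fpr-rs6 and Fpr-rs7 in apical neurons (filled circles) and macrophages (open squares) of the 2 libraries, in CPM, at the mitochondrial limits of 5% (left) and 10% (right). All macrophage values are 0 except Fpr-rs6 in library 2 (0.271 and 0.239), and the libraries of apical neurons lie closer to each other at 10% for Fpr-rs3, Fpr-rs6 and Fpr-rs7.

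The neuronal members were read at few UMIs. In apical neurons at the 5% limit Fpr-rs6 stood at 0.441 and 4.196 CPM (4 and 33 UMIs), and Fpr-rs3 at 0.110 and 1.27 CPM (1 and 10 UMIs). Fpr-rs4 stood at 0.991 and 0.890 CPM (9 and 7 UMIs), Fpr-rs7 at 0.991 and 0 CPM (9 and 0 UMIs) and Fpr3 at 0 and 0.763 CPM (0 and 6 UMIs). Fpr-rs4 was alike in both libraries at this limit, and the other members differed between them. Under the 10% limit Fpr-rs6 had 2.13 and 2.82 CPM, Fpr-rs3 1.95 and 2.40, Fpr-rs4 0.532 and 0.723, and Fpr-rs7 0.568 and 0.533. Fpr3 still differed, with 0.177 and 0.799 CPM.

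The RNA came from few cells. An Fpr-rs6 UMI was found at the 10% limit in 22 of 2022 apical neurons (1.09%, exact binomial interval 0.683 to 1.64), an Fpr-rs3 UMI in 19 (0.940%), an Fpr-rs4 UMI in 17 (0.841%), an Fpr-rs7 UMI in 14 (0.692%) and an Fpr3 UMI in 6 (0.297%). A cell held up to 27 UMIs of Fpr-rs6, 20 of Fpr-rs3 and 22 of Fpr3, and up to 4 of Fpr-rs4 and of Fpr-rs7. Of the cells of other named types, 5042 in number, 2 held Fpr-rs6, 1 held Fpr-rs7 and 0 held the others.

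Apical neurons held nearly all neuronal UMIs of Fpr-rs3, Fpr-rs4, Fpr-rs6 and Fpr-rs7. Those of Fpr3 lay in both groups as the majority rule forms them. The 4 apical neurons led by Fpr3 at the 10% limit held 3 to 17 Gnao1 UMIs beside 43 to 84 of Gnai2. They also held 7 to 151 Vmn2r UMIs, so they were apical by the Gnai2 majority only. Basal neurons, 115 at the 5% limit, held 2 Fpr3 UMIs and 1 Fpr-rs6 UMI and 0 of Fpr-rs3, Fpr-rs4 and Fpr-rs7. Apical neurons held 16945490 UMIs against 2181199 in the basal ones, so a count of 0 in the latter allows a level of up to 1.38 CPM. No member was called in apical against basal neurons, beside 8.39% of 14595 genes (Fpr-rs4 adjusted p = 0.299, Fpr-rs6 0.566, Fpr-rs3 0.568). With the library as a block 2307 genes were called in place of 1225, and no member was among them. In the fit at the 10% limit 20.6% of genes were called, and 2 of 7 members were among them, with Fpr1 and Fpr2 not tested. Fpr-rs3 was at least 2.20-fold higher in apical neurons (118 against 0 UMIs, adjusted p = 0.0313). Fpr3 was lower in them, with a log2 fold change of -4.08 ± 0.99 (26 against 24 UMIs, adjusted p = 0.0234), and 22 of the 24 basal UMIs came from 1 cell that had 7 Gnao1 and 5 Gnai2 UMIs. Fpr-rs6 had 134 against 1 UMIs (adjusted p = 0.0703). In these groups 3 of the 19 signalling genes were higher in apical neurons at the 5% limit, 0 lower and 13 of 16 tested not called, Gnai2 being used to form the groups. Of the 14 vomeronasal neuron genes 4 were higher and 5 lower.

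Neurons with at least 3 UMIs summed over the 7 members were examined cell by cell. At the 5% limit there were 11 such neurons, 4 in library 1 and 7 in library 2, all apical. They were led by Fpr-rs6 in 4 cells, Fpr-rs4 in 3, Fpr-rs7 in 2, and Fpr-rs3 and Fpr3 in 1 each. There were 42 at the 10% limit, 15 in library 1 and 27 in library 2, of which 41 were apical and 1 basal. Fpr-rs6 led in 15, Fpr-rs3 in 12 and Fpr-rs4, Fpr-rs7 and Fpr3 in 5 each. Neither library lacked a leading member at the 10% limit. A shallow neuron can fall under 3 UMIs, so these counts miss part of the neurons.

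Most of these neurons held UMIs of 1 member only, and the low shares of the members would give this by themselves. At the 10% limit no member was read in more than 1.09% of apical neurons. Few neurons would then hold 2 members even if the members were read independently. The counts are a description and do not show that 1 member keeps out another. Of the 11 neurons at the 5% limit, 10 (90.9%, exact binomial interval 58.7 to 99.8) held UMIs of 1 member, and of the 42 at the 10% limit, 40 (95.2%, 83.8 to 99.4). The exceptions were a cell with 2 Fpr-rs6 and 1 Fpr-rs7 UMIs, the pair of members with the closest sequence, and a cell with 5 Fpr-rs3 and 1 Fpr1 UMIs. None of these neurons was called a doublet.

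The Vmn1r genes were at low levels in many of these neurons, and here the neuron clusters have to be kept apart. A cluster of deep neurons, with a median of 35404 UMIs at the 10% limit, also carried Fezf2 and Cyp2a5, markers of sustentacular cells, at 2.36 and 1.73 times their level in other cells. Of the 42 neurons at the 10% limit, 17 lay outside it. In these 17 the Vmn1r UMIs had a median of 0, from 0 to 81, and 15 of them held no Vmn1r gene with 3 or more UMIs. In the 860 apical neurons outside that cluster with 0 member UMIs the median was 144 Vmn1r UMIs, and 89.2% held a Vmn1r gene with 3 or more. Their depth was alike, with medians of 15451 and 13562 UMIs. The exceptions among the 17 were a neuron with 27 Fpr-rs6 and 81 Vmn1r73 UMIs and a neuron with 4 Fpr-rs4 and 5 Vmn1r89 UMIs.

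The cells outside the deep cluster show the pattern member by member. The 4 neurons led by Fpr-rs3 held 20, 17, 11 and 7 of its UMIs and 0, 1, 0 and 0 Vmn1r UMIs. The 5 led by Fpr-rs6 held 27, 19, 10, 8 and 5 of its UMIs and 81, 0, 0, 1 and 0 Vmn1r UMIs. Each of the 4 led by Fpr-rs7 held 4 of its UMIs and at most 1 Vmn1r UMI. The 4 led by Fpr-rs4 held 4, 3, 3 and 3 of its UMIs and 10, 2, 0 and 0 Vmn1r UMIs. Gnai2 ranged from 16 to 73 UMIs in these cells and Gnao1 from 0 to 1, and Omp from 7 to 18.

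In the deep cluster the difference was smaller. Its 24 apical neurons with member UMIs had summed Vmn1r levels of 4177 and 5286 CPM, against 5714 and 5892 CPM in its 1082 apical neurons with none, lower in both libraries. The median per cell was 185 against 167 Vmn1r UMIs, and 21 of the 24 (87.5%) held a Vmn1r gene with 3 or more UMIs, against 94.6%. All 5 neurons led by Fpr3 lay in this cluster, and 4 of these held 142 to 487 Vmn1r UMIs. The neurons of the cluster that had member UMIs were also deeper (median 52707 UMIs) than those with none (35323). The part of depth and of RNA from other cells in these values was not tested.

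**Figure D4:**
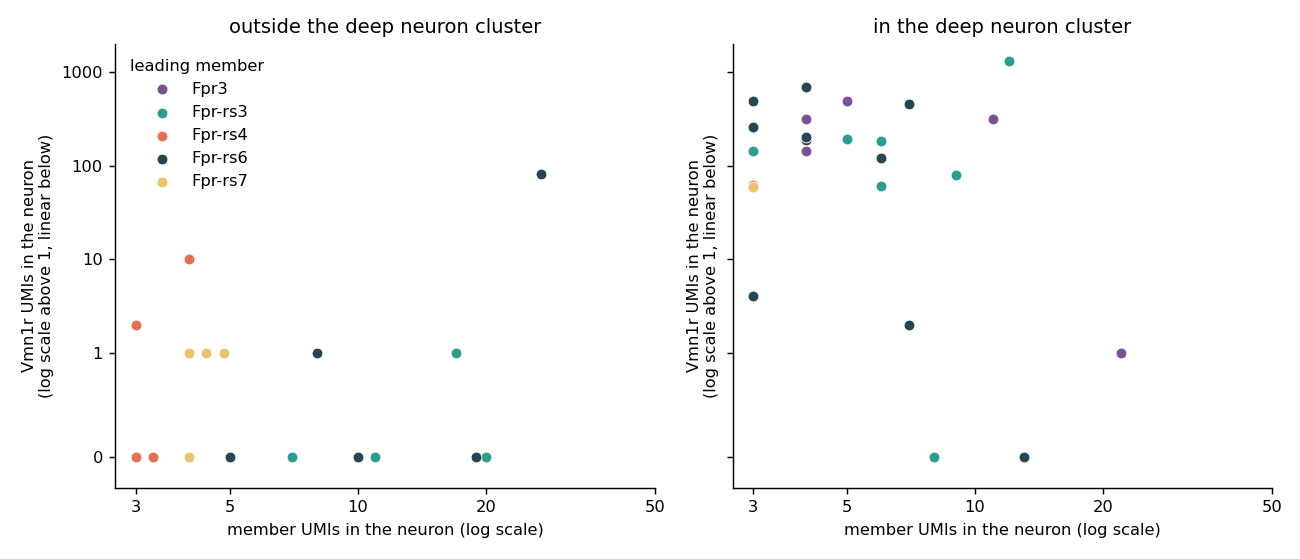
Member UMIs against summed Vmn1r UMIs in each of the 42 neurons with at least 3 member UMIs at the 10% limit, outside (left, 17 neurons) and in (right, 25 neurons) the deep neuron cluster, coloured by leading member; neurons with equal values are shifted slightly to the right. Outside the cluster all but 3 points lie at 0 or 1 Vmn1r UMIs, while points in the cluster reach 1309.

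Summed over cells, Vmn1r genes made 2551 and 2736 CPM in the 11 neurons with member UMIs at the 5% limit. They made 9794 and 10158 CPM in the 847 apical neurons with none. The log2 ratio was -1.94 and -1.89 in the 2 libraries. With 4 and 7 cells in the libraries this difference was not tested. The sums at the 10% limit were 3485 and 4391 against 7379 and 7522 CPM, and without the deep cluster 755 and 90.5 against 12823 and 13563 CPM. The Vmn1r level was the lower one in both libraries under each of these readings.

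The libraries had 15 and 26 apical neurons with member UMIs at the 10% limit, which allowed the fit over all genes. It called 97 of 16180 genes (0.600%) at an adjusted p under 0.05, among them 5 members that define the groups. With the library as a block it called 252. Each vomeronasal receptor gene is read in few neurons, so a sum over 41 neurons lacks most of them whatever else they hold, and no count or median over the Vmn1r genes that were lower is given. Of 147 Vmn1r genes tested 1 was higher, Vmn1r89, with 241 and 387 UMIs in these neurons and a log2 fold change of 0.91 ± 0.17. Of the 241 UMIs, 178 came from 1 neuron led by Fpr-rs3 and 63 from 1 led by Fpr-rs6. Of the 387, 120 came from 1 neuron led by Fpr-rs6, so this call rests in large part on few cells. Of 88 Vmn2r genes 6 were higher. Among them Vmn2r112 (0 and 57 UMIs) and Vmn2r104 (100 and 0 UMIs) were not read in the other apical neurons. The 57 UMIs came from 1 neuron and the 100 from another, both led by Fpr3. The 155 UMIs of Vmn2r97 (0 and 155) came from 1 neuron led by Fpr-rs6. All of these neurons lay in the deep cluster, and the calls of Vmn2r112, Vmn2r104 and Vmn2r97 rest on single cells. The 5 lower genes with the largest change, Vmn1r61, Vmn1r70, Vmn1r220, Vmn1r90 and Vmn1r71, had 0 UMIs against 4961 and 3187, 3082 and 2918, 2200 and 3299, 3441 and 1935, and 2246 and 2998, and the same limit holds for them.

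Outside the Vmn1r family the named genes that were higher were Vmn2r108 (log2 fold change 5.01 ± 0.71, adjusted p = 0.0024), Slfn4 (2.75 ± 0.51, adjusted p = 0.0231), Vmn2r124 (1.99 ± 0.17, adjusted p = 1.67e-05), Clec2g (1.58 ± 0.21, adjusted p = 0.00131) and Pcbd1 (1.51 ± 0.30, adjusted p = 0.0363). Vmn2r108 had 28 and 62 UMIs, and the 62 came from 1 neuron led by Fpr3. Slfn4, a Schlafen family gene, rested on 4 and 10 UMIs and was also a leading gene of the neutrophil cluster at this limit. Clec2g, a C-type lectin-like gene, had 34 and 45 UMIs against 491 and 413, and Pcbd1, a gene of pterin metabolism, 20 and 20 against 264 and 222. A total of 9 genes that are neither receptors nor members were higher and 14 lower. The lower ones included S100a5 (-4.44 ± 0.53), Gap43 (-1.09 ± 0.21), a growth-cone gene of immature neurons, and Apoe, C1qa and C1qb. These last 3 belong to the 8 macrophage markers, whose summed level was 46.02 and 55.1 CPM against 230 and 274 CPM, with Csf1r and Adgre1 at 0. The 8 neutrophil markers summed to 1.84 and 37.4 CPM against 22.7 and 31.4 CPM, and none of the 6 tested was called. The part of RNA from macrophages and neutrophils in the result was not tested. No gene of the chemoattractant receptor, ligand, signalling or vomeronasal neuron lists was called.

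Vmn2r124 is the next coding gene downstream of Fpr-rs4 on the same strand, 26720 bases away. All 5 neurons led by Fpr-rs4 at the 10% limit held it, with 6, 28, 32, 43 and 48 UMIs, or 157 of the 158 in the neurons with member UMIs. Of the other 2103 neurons, those with 0 member UMIs, 48 (2.28%) held it. Among these 48, 19 held at least 32 UMIs, the median of the neurons led by Fpr-rs4. The next coding gene downstream of Fpr-rs3 is Vmn2r110, 27423 bases away, and 7 of 12 neurons led by Fpr-rs3 held it, with 1 to 3 UMIs each, against 0.285% of the others. The same was not seen for Fpr-rs7 and Vmn2r104, 64874 bases apart (0 of 5 neurons), or for Fpr3 and Fpr-rs4, 50056 bases apart (0 of 5). Of the 15 neurons led by Fpr-rs6, 1 held its downstream neighbour Fpr-rs7, 67852 bases away. These genes were looked at because of their position, after the Vmn2r124 value was seen, and no test was run.

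Some Fpr-rs3 RNA lay outside the neurons as defined here. Of its 29 UMIs at the 5% limit, 11 were in neurons and 7 in unnamed clusters. Of these 7, 6 lay in a cluster of 223 cells of which 221 came from library 1, whose leading genes were Myh11 and Spp1. With a limit of 1 Omp UMI in place of 2, apical neurons held 1 and 21 Fpr-rs3 UMIs, since 11 more of library 2 came in. In all, 31 Fpr-rs3 UMIs lay in unnamed clusters at the 10% limit, 28 of them in library 1. Of the 31, 11 lay in a shallow cluster of 564 cells (median 1034.5 UMIs), which also held 4 Fpr-rs6 UMIs. That cluster raised 4 of the 7 neuron markers, Omp among them, and stayed unnamed for its depth and leading genes. It may hold mature neurons, so part of this RNA may be neuronal.

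The mitochondrial limit removed much of the neuronal members' RNA. Over all barcodes the files hold 65 Fpr3, 169 Fpr-rs3, 36 Fpr-rs4, 151 Fpr-rs6 and 36 Fpr-rs7 UMIs. The 5% limit kept 18.5%, 17.2%, 50%, 29.1% and 27.8% of them. It kept 80.9% of 173 Fpr1 and 86.9% of 107 Fpr2 UMIs, and 43.8% of all UMIs. The 10% limit kept 87.7% to 100% of each member. The groups shrank as well: 985 of 2186 neurons (45.1%) passed the 5% limit, 754 of 885 neutrophils (85.2%) and 1685 of 2400 macrophages (70.2%). Of the apical neurons with member UMIs 11 of 41 passed (26.8%), against 847 of 1942 with none (43.6%). Over all genes the neurons held 10215551 and 8958697 UMIs at the 5% limit, against 29804727 and 27758387 at the 10% limit. The loss of neuronal RNA was therefore not confined to the members. Between the 10% and 5% limits the neurons' UMIs fell from 50 to 8 for Fpr3 and 118 to 11 for Fpr-rs3. They fell from 34 to 16 for Fpr-rs4, 135 to 38 for Fpr-rs6 and 30 to 9 for Fpr-rs7. Whether the members lost more than other genes was not tested.

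**Figure D5:**
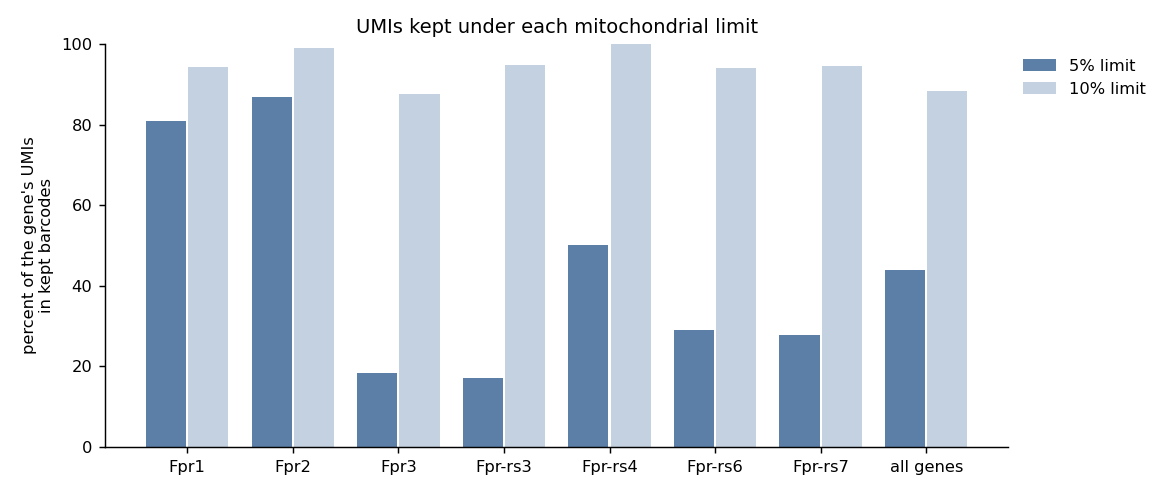
Percent of each member's UMIs, and of all UMIs, that lie in barcodes kept under the mitochondrial limits of 5% (dark bars) and 10% (light bars). At 5% Fpr1 and Fpr2 keep over 80% and the 5 neuronal members 17.2% to 50%, beside 43.8% of all UMIs.

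The genes most like a member over 13 cell groups and both libraries (Pearson correlation of log2(CPM + 10) over 26 points, 15901 genes) differed between the members. For Fpr1 they were Slc26a11 (r = 0.94), Ddx60 (0.88) and Tmem189 (0.86), and for Fpr2 C130050O18Rik (0.96), Olr1 (0.92) and Ifitm5 (0.92). For Fpr-rs6 they were Vmn1r183 (0.97), Vmn2r63 (0.96) and Vmn1r65 (0.96), and for Fpr-rs3 Vmn1r5 (0.99), Vmn1r87 (0.97) and Vmn1r42 (0.94). The points share libraries and differ in depth, and those of Fpr-rs3 and Fpr-rs6 are mostly near 0, so these values describe rank only. The other members had under 20 UMIs and were not included.

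The stretch before the start of the leukocyte members is shown because Fpr1 and Fpr2 were the members that differed between myeloid groups. The bases run from 150 before the gene start to the last base before it (RefSeq table, GRCm38.p6). Capitals mark GAGGAA or its reverse complement TTCCTC, letters within the consensus site of PU.1, a factor of myeloid cells. Shorter or other forms of the site were not searched, so a count of 0 does not mean that such a site is absent.
Fpr1 (chr17:17883940-17884089, minus strand): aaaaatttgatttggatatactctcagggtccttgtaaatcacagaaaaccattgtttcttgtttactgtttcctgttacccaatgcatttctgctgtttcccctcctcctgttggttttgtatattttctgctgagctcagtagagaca
Fpr2 (chr17:17887674-17887823, plus strand): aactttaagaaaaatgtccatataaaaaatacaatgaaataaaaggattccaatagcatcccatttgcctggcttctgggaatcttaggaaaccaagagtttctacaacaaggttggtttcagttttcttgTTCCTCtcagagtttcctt
The 250 bases before the start of Fpr2 hold 1 match, 19 bases before the start, and those of Fpr1 hold 0. Fpr3 and Fpr-rs3, which were not read in the myeloid cells at the 5% limit, also hold 1 match each, and 23.3% of 32851 windows of this length hold at least 1.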

How the data were processed

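Whole-VNO cells of both libraries had been captured by droplet sequencing, and the deposited tables hold raw counts of UMIs per gene and barcode, made by the authors with Cell Ranger 4 on mm10 (the submitters' processing notes also name bcl2fastq and Seurat 3.2.3). Counts cover gene models in the 3′ protocol, and how reads shared by near-identical members were counted is not stated for these libraries. The members and the lists were chosen with earlier results of these data known.

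Barcodes with 200 to 9000 genes and at most 5% mitochondrial UMIs (alternative, 10%) were clustered in Seurat 5.3.0 (2000 variable genes less the members among them, 30 components, resolution 0.8). A cluster was named from at least 3 fixed markers raised at least 4-fold, or 1.5-fold for the markers of neurons. Mature neurons also needed Omp among the raised markers. A shallow cluster that met this rule stayed unnamed when none of the markers was among its 10 leading genes. Neurons needed 2 Omp UMIs. Doublets were called with Scrublet (scanpy 1.11.5, Python 3.11.15, expected rate 8%), counted and left in the main analysis. UMIs were summed per group and library and tested with the quasi-likelihood test of edgeR 4.0.16 (R 4.3.3), TMM scaling, genes with at least 10 UMIs, and a Benjamini-Hochberg adjusted p under 0.05 over all genes tested. DESeq2 1.42.0, no filter, the library as a block, leaving out each library, resolution 0.5, removal of doublets and other neuron limits were alternatives, and those on Mrc1, shallow macrophages and the deep neuron cluster were added after the data were seen. A library number marks a shared capture, so the libraries pair the groups, and their deviations correlated weakly (r = 0.02 to 0.08). Each group compared had at least 10 cells per library. Intervals are exact at 95% and, like the floor of 3 UMIs, cover counting error only. Shares were also computed after thinning to 1000 UMIs, leaving out shallower cells. Named genes were the members, the listed genes and, for neurons with member UMIs, the 5 largest changes in each direction alike in both libraries; others were named after their values were seen. Coding sequences were aligned with Biopython 1.88, and figures drawn with matplotlib 3.10.9. Methods were tested on simulated data.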

Additional observations from a re-analysis of the deposited data

Results flagged for a closer look

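Signal was left in barcodes that the main analysis did not use, those above the 5% mitochondrial limit or outside the limits on genes. They held 33 Fpr1 and 14 Fpr2 UMIs. They also held 53 Fpr3, 140 Fpr-rs3, 18 Fpr-rs4, 107 Fpr-rs6 and 26 Fpr-rs7 UMIs, so that for Fpr3, Fpr-rs3, Fpr-rs6 and Fpr-rs7 more UMIs lay outside the kept cells than in them. Both libraries took part for every member, with 83 and 57 of the Fpr-rs3 UMIs and 62 and 45 of the Fpr-rs6 UMIs. Cells with 5% to 10% mitochondrial UMIs held 131 of the 140 and 98 of the 107.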

How the results depend on the processing

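Of 127 values of member log2 fold changes under the alternatives, 124 kept their direction, and of the 96 that had an adjusted p, 89 kept both their direction and their side of the threshold, while 33 of 39 counts of called genes stayed within 1.5 times. These tallies include resolution 0.5, which formed nearly the same groups as the main setting (874 in place of 875 macrophages in library 1). Its values could therefore hardly differ. Fpr2 in neutrophils against monocytes and Fpr-rs4 in neurons against myeloid cells lost their call with DESeq2 (adjusted p 0.691 and 0.168). With the library as a block Fpr-rs6 in neurons against myeloid cells gained a call, and the block changed no other call of a member. The 10% limit added calls for Fpr-rs3 and Fpr-rs6 in neurons against myeloid cells and for Fpr-rs3 in apical against basal neurons. It also called Fpr-rs7 (higher in neurons) and Fpr3 (lower in apical neurons), which had too few UMIs to be tested at 5%. Against the macrophages of the Mrc1 cluster alone, Fpr1 turned to -0.62 (log2). Leaving out each library moved Fpr2 in neutrophils against monocytes from 1.07 to 4.94, Fpr2 in monocytes against macrophages from -4.23 to 2.25 and Fpr-rs6 in apical against basal neurons from -0.96 to 5.25, with no test.

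DESeq2 called 1357 genes in neutrophils against monocytes and 1344 in monocytes against macrophages. In apical against basal neurons the block called 2307 and the 10% limit 3373. For neurons with member UMIs at the 10% limit, no filter called 45 and the block 252. The mean log2 ratio of summed Vmn1r levels in these neurons, -1.92 in the main reading, was -0.93 at the 10% limit, -1.79 with at least 1 member UMI and -5.66 at the 10% limit without the deep neuron cluster. The cause of these shifts was not tested.

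Shares fell with thinning to 1000 UMIs and with a minimum of 2 UMIs: Fpr1 in neutrophils to 2.38% and 0.133%, Fpr2 in neutrophils to 3.27% and 0.531%, Fpr1 in macrophages to 0.875% and 0.890%, Fpr2 in macrophages to 0.584% and 0%, and Fpr-rs6 in apical neurons to 0.115% with thinning. Thinning neurons to 5000 UMIs left 1 and 2 with member UMIs and 0 Vmn1r UMIs, so no ratio was formed. Neurons with at least 3 member UMIs at the 5% limit were under 10 cells in a library and gave no test, while with at least 1 member UMI (10 and 11 cells) 25 of 14363 genes were called, Fpr-rs4 and Fpr-rs6, which define the group, among them. Neutrophils with granule genes were under 10 cells in library 1 at either limit. Depth limits the members with few UMIs: a count of 0 allows up to 1.38 CPM in basal neurons and 5.34 CPM in monocytes.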
